A study of Mus musculus with 4 samples.

Results

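Chromatin accessibility at the genes that mark the mesothelium was examined in the visceral fat of mice of the outbred CD-1 stock. The genes were given by name, as known markers of these cells: Wt1, Msln, Upk3b, Lrrn4, Krt19, Krt8, Krt18, Gpm6a, Muc16 and Bnc1. They were chosen with earlier results of these data known. These 10 genes stood among 21000 coding genes that have a curated RefSeq start site on the mm10 build. A promoter here is the stretch within 500 bp of any such start site, and a window runs from 20 kb upstream of the first start site to the end of the gene. The 10 windows held 88 of the 147157 regions that result when peaks of the 4 libraries sharing at least 1 bp are merged.

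The data were 4 ATAC-seq libraries in 2 groups of 2, all from mice 8 weeks old. ATAC-seq marks open chromatin by the places where a transposase can insert sequencing adapters. Mice of the BPA group descended from dams that received bisphenol A intraperitoneally at 50 mg/kg, each day between embryonic days 7.5 and 13.5. Control mice descended from dams given sesame oil on the same days. The offspring of different treated dams were mated, without sibling breeding, so the sampled mice had not been injected themselves. The sample titles and the study's methods give different generations for the BPA mice, and the generation is therefore not stated here. Neither the sex of the mice nor a batch was labelled. Nuclei came from homogenised whole tissue and no sorting step is described, so that fewer mesothelial nuclei and less accessible chromatin per nucleus cannot be told apart.

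The mesothelium is the flat, epithelium-like sheet of mesodermal origin that covers the serous cavities and the organs and fat depots within them. Its cells make keratins and surface glycoproteins and secrete the fluid that lets organs slide. The transcription factor Wt1 is a common marker of these cells in visceral fat.

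The 4 peak lists differed in size and shape. They held from 72375 peaks in BPA 1 to 98060 in BPA 2, with a median peak width of 567 bp and 456 bp in controls 1 and 2 and 540 bp and 780 bp in BPA 1 and 2. Read totals were not part of the lists, so depth is unknown. The local background that the peak caller used can be recovered for each peak, and its lowest value was 2.85 reads and 2.70 in controls 1 and 2 and 1.16 and 3.80 in BPA 1 and 2. BPA 2 thus had the highest floor and the widest peaks, and its median pile-up at the summit was 38 reads against 19 to 23 in the other libraries. The list of BPA 2 also carried another replicate number than its sample title, and the lists of control 1, control 2 and the BPA libraries were named after different patterns. The smallest pile-up of any listed peak was 9 reads in control 1 and control 2, 6 in BPA 1 and 11 in BPA 2. An absent peak means that the pile-up did not pass the q-value threshold of 0.05. It does not mean that the site was closed.

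With 2 libraries a group, an exact two-sided permutation test cannot give a p below 0.333, so no test between groups was made. Counts are set beside the same count over all coding genes or over all regions in the windows of coding genes. The rank of a peak is its place by q-value within its own library, in percent of the list, with 0 for the best peak.

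Promoter peaks of the mesothelial genes were most frequent in control 1 and least frequent in BPA 2. In control 1, 7 of the 10 genes had one, where 62.6% of coding genes did. Control 2 had 5, against 61.4% of coding genes, and BPA 1 had the same 5, Wt1, Upk3b, Gpm6a, Muc16 and Bnc1, against 64.1%. In BPA 2 only Wt1 and Bnc1, 2 of the 10, had a promoter peak, although 67.4% of coding genes did, the highest share of the 4 lists. BPA 2 thus had the lowest count for the mesothelial genes and the highest share over all coding genes. With promoters of 1000 bp either side the counts were 8, 7, 6 and 4 of 10 in control 1, control 2, BPA 1 and BPA 2. Among peaks whose −log10 q-value reached 5 they were 4, 3, 4 and 2. Under both rules BPA 2 had the fewest, but the difference was small for the stronger peaks. The shares of coding genes under these rules were not computed.

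Wt1 and Bnc1 were the 2 genes with a promoter peak in all 4 libraries, a pattern held by 57.9% of coding genes. Msln and Krt18 had none in any library, like 30.4% of coding genes. No member had a promoter peak in both controls and in neither BPA library, a pattern of 0.433% of coding genes, and none had one in the 2 BPA libraries without either control, a pattern of 2.51%. Upk3b and Muc16 had a promoter peak in both controls and BPA 1 and none in BPA 2. This pattern was rare, with 35 of 21000 coding genes, or 0.167%, and 2 of these 35 were members. No promoter in the set thus separated the treatment groups by presence, while 2 separated BPA 2 from the other 3 libraries.

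The promoter peaks that were present ranked low in their lists. The median rank of the best promoter peak over coding genes with one was 9.55% and 10.9% in controls 1 and 2 and 9.53% and 7.08% in BPA 1 and 2. Over the mesothelial genes with a promoter peak it was 46.0% and 45.8% in controls 1 and 2 and 55.4% and 36.8% in BPA 1 and 2, from 7, 5, 5 and 2 genes. Most of these peaks were therefore weak ones, closer to the threshold than a typical promoter.

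**Figure D1:**
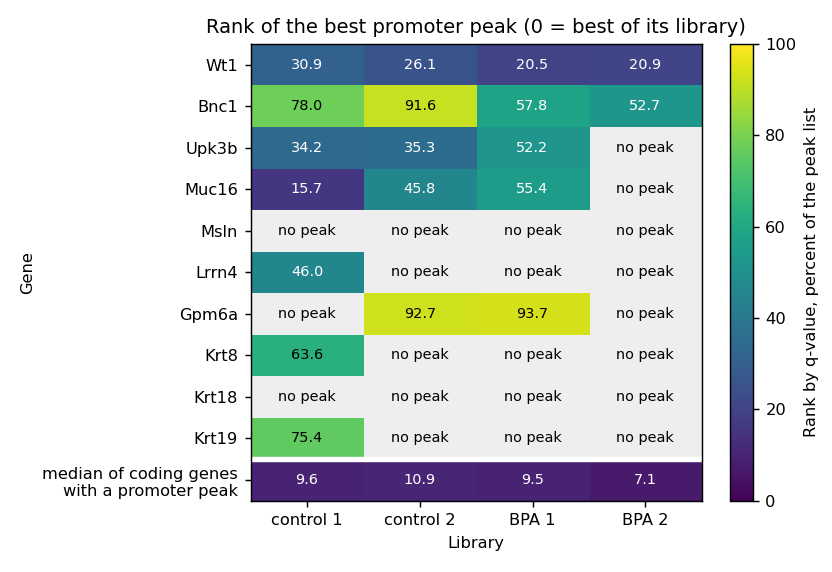
Rank of the best promoter peak of each mesothelial gene (rows) in each library (columns), in percent of the library's peak list by q-value, with 0 for the best peak; grey cells had no promoter peak, and the bottom row is the median over coding genes with one. Wt1 was the best ranked in 3 of the 4 libraries, Upk3b and Muc16 are grey in BPA 2 alone, and every coloured cell of a member lies above the 7.08 to 10.9% of the bottom row.

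Of the transcription factors, Wt1 encodes a zinc-finger protein. Its promoter peak ranked at 30.9% and 26.1% in controls 1 and 2 and 20.5% and 20.9% in BPA 1 and 2. The fold of the pile-up over local background was 3.02, 3.97, 5.29 and 4.56 in the same order. Both BPA values lay beyond both control values in rank and in fold, and the mean rank was 28.5% ± 3.42 for controls (SD, n = 2) and 20.7% ± 0.293 for BPA (SD, n = 2). Both BPA ranks were ahead of both control ranks in 30.4% of the regions with a peak in all 4 libraries in windows of coding genes, so this order alone is common. The order of the ranks turned when peaks were ranked among promoter peaks alone, where the BPA mean lay 0.834 percentage points behind the control mean. Bnc1 and Wt1 were the only members for which such a comparison of all libraries was possible.

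The Wt1 peak sat on a promoter that is shared with the antisense RNA gene Wt1os. The start site of Wt1os was 8 bp from the summit of the merged region, which was the summit of BPA 1. Relative to the Wt1 start site, the summits lay at -152 and -44 bp in controls 1 and 2 and at -11 and 409 bp in BPA 1 and 2. ATAC-seq does not tell the strand, and the peak cannot be given to one of these genes. The peak spanned 1277 bp and 330 bp in controls 1 and 2 and 1610 bp and 1736 bp in BPA 1 and 2. Local background there was high, at 6.16, 4.57, 9.11 and 6.95 times the lowest background of each library. The low folds of this promoter thus stood over a locus with many reads around it, with 55, 52, 60 and 124 reads at the summit.

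The Wt1 window held 12 regions, more than that of any other member except Gpm6a, and 6 of them had a peak in every list. By the mean over libraries, the best-ranked region was the promoter itself. Upstream, regions near 17.6 and 13.9 kb lay in introns of Wt1os, and the former ranked at 31.7% and 6.76% in controls 1 and 2 and 42.8% and 39.6% in BPA 1 and 2. Inside the gene an intronic region 15.4 kb downstream of the start site ranked at 16.9% and 22.0% in the controls and at 57.5% and 44.8% in the BPA libraries. Another intronic region, 20.4 kb downstream of the start site, had the opposite order, at 47.3% and 40.6% in the controls and 28.1% and 31.5% in the BPA libraries. The groups did not overlap in rank at these 2 intronic sites, nor at any other Wt1 region with a peak in every list. The intronic site at 3.9 kb ranked at 46.0% and 46.4% in the controls and 52.8% and 89.8% in the BPA libraries. That at 41.8 kb ranked at 40.1% and 54.4% in the controls and 34.6% and 39.8% in the BPA libraries. The order thus went both ways. Over such regions in all coding windows, both controls ranked ahead in 25.3% and both BPA libraries in 30.4%.

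In both BPA libraries alone, Wt1 had an intronic region at chr2:105154965-105155794, 28.8 kb downstream of the start site. It ranked at 70.1% with a fold of 4.62 in BPA 1 and at 35.2% with a fold of 6.66 in BPA 2. The 2 regions with a peak in every library but control 2 were also in the Wt1 window, at 13.9 kb upstream and 34.6 kb downstream. Wt1 was therefore a gene with peaks in all libraries, with 10, 8, 10 and 10 of its 12 regions in control 1, control 2, BPA 1 and BPA 2.

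Bnc1, basonuclin, encodes a zinc-finger transcription factor of stratified epithelia, germ cells and mesothelium. Its promoter peak ranked at 78.0% and 91.6% in controls 1 and 2 and 57.8% and 52.7% in BPA 1 and 2. The fold was 2.41 and 2.47 in controls 1 and 2 and 4.80 and 5.62 in BPA 1 and 2, and its mean was 2.44 ± 0.0433 for controls (SD, n = 2) and 5.21 ± 0.580 for BPA (SD, n = 2). The groups did not overlap in either measure, and the BPA libraries were ahead, an order of ranks shared by the same 30.4% of regions. Pile-ups at the summit did overlap, with 27 and 19 reads in controls 1 and 2 and 19 and 30 in BPA 1 and 2. Local background was 10.6 and 7.11 reads in controls 1 and 2 and 3.17 and 4.52 in BPA 1 and 2. The rank difference, BPA minus control, was -29.5 percentage points and came to -7.05 when peaks were ranked among promoter peaks alone.

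The peaks of the 2 groups did not lie at the same place within the Bnc1 promoter. In control 1 the peak was 305 bp wide and ran from -460 to -156 bp relative to the start site, and in control 2 it was 249 bp wide and ran from -455 to -207 bp. The peak of BPA 1 was 1220 bp wide and reached from -472 to 747 bp, and that of BPA 2 was 1190 bp wide and reached from -409 to 780 bp. Only the BPA peaks covered the start site. The 200 bases upstream of the start site, shown because the control peaks ended within or just outside them, were richer in G and C than 99.5% of the promoters compared.
Bnc1 promoter, chr7:81992300-81992499, minus strand: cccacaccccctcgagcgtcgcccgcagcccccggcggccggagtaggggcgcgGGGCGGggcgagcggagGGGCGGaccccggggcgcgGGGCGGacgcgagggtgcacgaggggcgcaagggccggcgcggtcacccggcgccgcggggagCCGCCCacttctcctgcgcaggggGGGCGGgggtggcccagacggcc

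This stretch was 84.5% G and C and held 32 CpG dinucleotides, where the median over 20485 promoters of coding genes was 57% and 9. Capitals in this and the following sequences mark letters that match a searched motif on either strand. The motifs were GGAATG of TEAD factors, TGANTCA of AP-1, AGATAA of GATA factors, CCAAT of the CCAAT box, GGGCGG of the GC box, GCGTGGG of WT1 and EGR factors, CACGTG of the E-box and TGTGGT of RUNX factors. Of 200-base promoter stretches of coding genes, 9.07% held the TEAD letters, 5.03% AP-1, 6.65% GATA, 31.3% the CCAAT box, 42% the GC box, 4.65% WT1/EGR, 5.97% the E-box and 9.41% RUNX. No motif contains another, though neighbouring matches can share bases. The Bnc1 stretch held 5 GC boxes and none of the other motifs. A match describes letters and not a bound factor. Whether base composition had a part in the Bnc1 difference was not tested.

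Away from its promoter, Bnc1 had peaks mainly in the controls. Its window held 4 regions, all 4 with a peak in control 1 and control 2, 3 with one in BPA 1 and only the promoter with one in BPA 2. A region 3.0 kb upstream, at chr7:81995187-81996237, was found in both controls alone and ranked at 22.2% with a fold of 4.25 in control 1 and 51.5% with a fold of 3.78 in control 2. The intronic region 8.5 kb downstream ranked at 40.4% and 56.9% in controls 1 and 2 and 87.0% in BPA 1, and was missing in BPA 2. Bnc1 thus paired a better-ranked promoter peak in the BPA libraries with fewer peaks in the rest of its window. The 200 bases around the summit of the upstream region are shown because it was the control-only region of this gene.
Bnc1 upstream region, chr7:81995200-81995399, plus strand: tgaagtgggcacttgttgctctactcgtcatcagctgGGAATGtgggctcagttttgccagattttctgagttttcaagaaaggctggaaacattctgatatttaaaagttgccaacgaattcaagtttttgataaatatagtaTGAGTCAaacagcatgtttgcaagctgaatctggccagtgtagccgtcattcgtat

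These bases were 40.5% G and C and held 1 TEAD and 1 AP-1 match. Among 147152 region summits cut to the same length, 13.5% held the TEAD letters and 10.2% the AP-1 letters.

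The surface proteins were Msln, Muc16, Upk3b, Lrrn4 and Gpm6a. Mesothelin, the product of Msln, is an anchored glycoprotein that binds Muc16, a large transmembrane mucin. Muc16 had its promoter peak at a rank of 15.7% and 45.8% in controls 1 and 2 and 55.4% in BPA 1. The fold was 5.42, 4.14 and 5.84, from pile-ups of 43, 27 and 15 reads. The promoter in control 1 was the best-ranked promoter peak of any member in any library, and control 2 lay nearer to BPA 1 than to control 1.

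BPA 2 had no peak anywhere in the Muc16 window, which is 199.2 kb long and held 8 regions. Control 1 had a peak in 4 of them, control 2 in 6 and BPA 1 in 2. BPA 1's 2 regions were the promoter and an intronic site 6.5 kb downstream, and both controls had these as well. The intronic site ranked at 28.3% and 82.7% in controls 1 and 2 and 83.4% in BPA 1. All other regions of Muc16 were found in a single control library, 2 in control 1 and 4 in control 2. The bases upstream of the Muc16 start site are shown because this promoter and that of Upk3b had the rare pattern of a peak in all libraries but BPA 2.
Muc16 promoter, chr9:18674604-18674803, minus strand: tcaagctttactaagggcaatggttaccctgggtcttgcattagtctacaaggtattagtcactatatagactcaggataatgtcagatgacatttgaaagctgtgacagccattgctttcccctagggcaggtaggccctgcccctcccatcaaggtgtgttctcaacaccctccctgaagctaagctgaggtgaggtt
Upk3b promoter, chr5:136038296-136038495, plus strand: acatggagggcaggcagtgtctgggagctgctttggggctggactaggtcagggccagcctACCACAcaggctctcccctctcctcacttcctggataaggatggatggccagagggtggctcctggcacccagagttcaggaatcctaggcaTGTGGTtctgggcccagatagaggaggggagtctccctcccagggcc

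Neither stretch held a single CpG, in contrast to the Bnc1 promoter. Promoters of coding genes with a promoter peak at any start site in each of the 4 libraries had a median of 14 CpG. For genes with none in any library the median was 2. Promoter sequences were at hand for 16850 of the 21000 coding genes. The Muc16 stretch was 48% G and C and matched none of the motifs, and the Upk3b stretch was 62% G and C and held 2 RUNX matches, marked in capitals.

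Upk3b encodes a membrane protein of the uroplakin family, named for the bladder lining and made in the mesothelium too. Its promoter peak ranked at 34.2% and 35.3% in controls 1 and 2 and 52.2% in BPA 1. The fold was 3.72, 4.20 and 4.56 in the same order, with pile-ups of 36, 36 and 24 reads. The controls were close to each other, and BPA 1 had a weaker rank but a higher fold. For BPA 2 the promoter was not in the list, although 3 upstream regions of the window were. These lay 3.5, 12.7 and 18.4 kb from the start site, the latter 2 within introns of the neighbouring gene Dtx2.

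The Upk3b window held 6 regions, of which 4 and 5 had a peak in controls 1 and 2 and 4 and 3 in BPA 1 and 2. A region 2.8 kb downstream, in an intron of Upk3b, was found in both controls alone and ranked at 63.1% with a fold of 2.82 in control 1 and 63.0% with a fold of 3.07 in control 2. A region 3.5 kb upstream, at chr5:136034118-136035499, was found in both BPA libraries alone. It ranked at 87.4% with a fold of 3.39 in BPA 1 and at 34.1% with a fold of 6.23 in BPA 2. Upk3b was the one member with a region of each kind. The region with the lowest mean rank was the one 18.4 kb upstream, at 41.7% and 20.2% in controls 1 and 2 and 41.3% and 43.6% in BPA 1 and 2, with folds of 2.88, 3.97, 3.57 and 2.95.

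Msln had no promoter peak in any library. Its nearest region lay 2.5 kb upstream, at chr17:25755905-25757431, and had a peak in every library but BPA 2. It ranked at 21.6% and 33.8% in controls 1 and 2 and 40.4% in BPA 1, with folds of 4.31, 4.43 and 4.87. The merged region was 1527 bp long, and its rank was ahead of all but 1 of the promoter peaks of the other members in each of these libraries. In BPA 2 the peaks of the window lay elsewhere, with 2 regions found in no other library at 5.9 and 7.3 kb upstream and ranks of 96.5% and 42.9%. The region with the lowest mean rank, with ranks of 23.3%, 42.1%, 11.8% and 8.36% and folds of 6.08, 5.18, 14.1 and 14.0, was at the promoter of the neighbouring gene Ciao3, 23 bp from its start site. In both controls the region 2.5 kb upstream of Msln ranked ahead of it.

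Lrrn4 encodes a membrane protein with leucine-rich repeats. It had a promoter peak in control 1 alone, at a rank of 46.0% and a fold of 2.86. An exonic region 1.3 kb downstream of the start site had a peak in all 4 libraries, at 47.8% and 41.7% in controls 1 and 2 and 39.4% and 22.2% in BPA 1 and 2. The folds were 2.86, 3.76, 5.54 and 7.56. Of the 9 regions of the window this one had the lowest mean rank over libraries with a peak, although other regions ranked ahead of it in both controls. Lrrn4 was thus accessible near its start site in BPA 2 at a site just outside the promoter.

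Upstream, Lrrn4 had 2 sites that were better ranked in the controls. The region 13.1 kb upstream had a peak in all libraries and ranked at 11.0% and 21.0% in controls 1 and 2 and 81.8% and 61.3% in BPA 1 and 2. Its pile-up was 55, 41, 10 and 25 reads. Both controls were ahead of both BPA libraries in 25.3% of regions with a peak in all 4 libraries in coding windows. The region 3.9 kb upstream ranked at 19.6% and 34.3% in controls 1 and 2 and 73.9% in BPA 1, and was missing in BPA 2. A further site, 17.6 kb upstream, was found in both controls alone at ranks of 46.0% and 41.5% and folds of 2.94 and 3.52. The difference in rank at the 13.1 kb site was the widest between the groups for any region of the members with a peak in all 4 libraries. The summit of the 3.9 kb region is shown as an example of a strong control site with no peak in BPA 2.
Lrrn4 upstream region, chr2:132884673-132884872, plus strand: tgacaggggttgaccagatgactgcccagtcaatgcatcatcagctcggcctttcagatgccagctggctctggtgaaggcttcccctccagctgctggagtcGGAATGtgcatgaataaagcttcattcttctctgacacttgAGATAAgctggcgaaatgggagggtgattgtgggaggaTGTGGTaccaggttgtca

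These bases held 1 TEAD, 1 GATA and 1 RUNX match. The GATA letters occurred in 10.9% and the RUNX letters in 14.1% of region summits.

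Gpm6a encodes a membrane glycoprotein best known from neurons and also made in the mesothelium. Its window, 301.4 kb long, was the longest and held 36 of the 88 regions. Control 1 had a peak in 31 of them, control 2 in 14, BPA 1 in 4 and BPA 2 in 1. In control 1, 22 of the 31 regions were found in no other library. Most of these peaks were weak, with a median rank of 75.1% in control 1, 84.5% in control 2, 75.8% in BPA 1 and 81.2% for the 1 peak of BPA 2. Control 1 thus had the most of these regions and BPA 2 the fewest. BPA 2 also had the highest background floor, and its part in the count of weak peaks was not tested.

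By the promoter rule, Gpm6a had a peak in control 2 and BPA 1, at 92.7% and 93.7% with folds of 2.64 and 3.32. These peaks were among the weakest of their lists. The merged region that held them, in which BPA 2 had no peak, extended downstream beyond the promoter. In that part control 1 had a peak at 74.0% and control 2 another at 72.1%. The absence of a Gpm6a promoter peak in control 1 thus depended on where the promoter was cut off. A single region, in an intron 50.7 kb downstream, had a peak in all 4 libraries. It ranked at 14.4% and 20.3% in controls 1 and 2 and 58.0% and 81.2% in BPA 1 and 2, with pile-ups of 50, 36, 16 and 18 reads. The groups did not overlap at this site, and the controls were ahead. That order was held by 25.3% of regions with a peak in all 4 libraries in windows of coding genes.

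Of the 8 regions found in both controls alone, 5 were in introns of Gpm6a. The best was at chr8:54924533-54925477, 145.7 kb downstream of the start site, and ranked at 20.4% with a fold of 5.04 in control 1 and 16.7% with a fold of 7.61 in control 2. It had the lowest mean rank of the gene's regions over libraries with a peak, which here are the controls alone, and in control 1 the intronic region at 50.7 kb ranked ahead of it. The other 4 ranked much lower. They were at 31.7 kb, with ranks of 91.3% and 87.7% and folds of 2.53 and 3.24, and at 49.0 kb, with 54.5% and 84.9% and folds of 3.04 and 2.89. The remaining ones were at 153.3 kb, with 97.5% and 73.7% and folds of 2.78 and 3.78, and at 162.1 kb, with 93.3% and 62.1% and folds of 2.82 and 4.33. The summit of the best of these regions is shown.
Gpm6a intronic region, chr8:54925026-54925225, plus strand: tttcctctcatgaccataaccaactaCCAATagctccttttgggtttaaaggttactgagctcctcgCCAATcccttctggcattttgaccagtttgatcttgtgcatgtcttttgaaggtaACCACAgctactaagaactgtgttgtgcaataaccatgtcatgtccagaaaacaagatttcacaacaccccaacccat

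These bases held 2 CCAAT boxes, whose letters occurred in 24.8% of region summits, and 1 RUNX match.

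The maps of the windows show these patterns at scale.

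**Figure D2:**
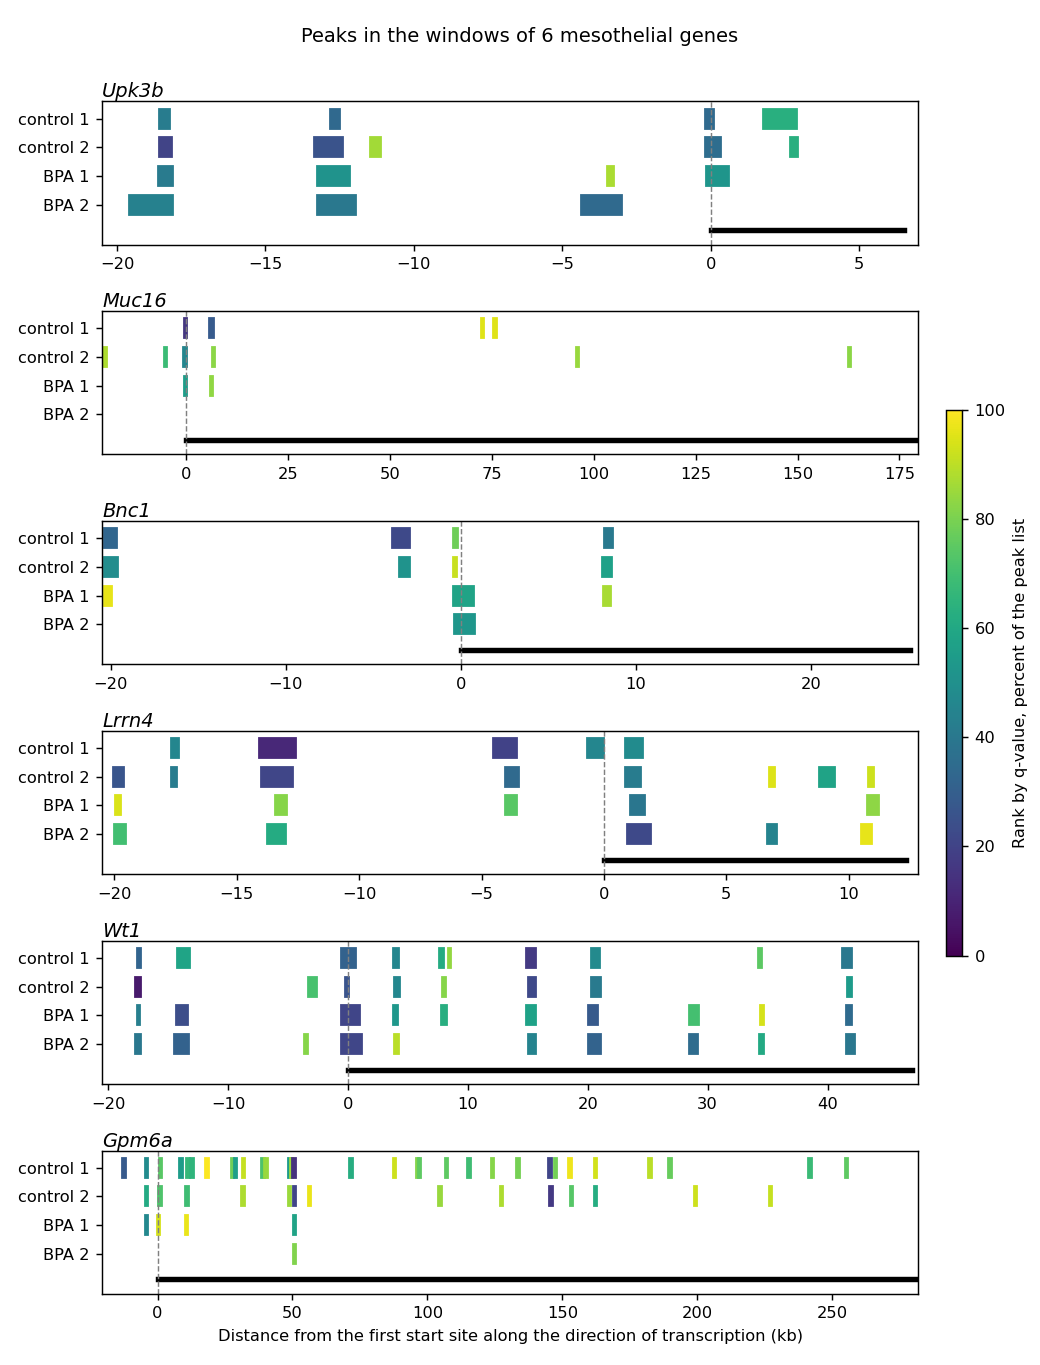
Peaks in the windows of 6 mesothelial genes, with 1 row of blocks per library for the best peak of each region, placed by distance from the first start site along the direction of transcription (kb; the dashed line marks the start site and the black bar the gene). Colour gives the rank in percent of the peak list, dark for the best, and very narrow peaks are widened to be visible. The BPA 2 row is empty for Muc16, holds 1 block for Bnc1 and 1 for Gpm6a, and is as full as the others for Wt1.

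The keratins Krt8 and Krt18 form the filament pair of simple epithelia, and Krt19 is a further keratin of such cells. Their promoters were nearly without peaks. Krt8 had one in control 1 alone, at 63.6% and a fold of 3.25, Krt19 one in control 1 alone, at 75.4% and a fold of 2.63, and Krt18 none. None of the 3 had a promoter peak in control 2, BPA 1 or BPA 2.

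Sites close to the keratin promoters had peaks in all libraries. An intronic region 1.3 kb downstream of the Krt8 start site ranked at 22.8% and 44.1% in controls 1 and 2 and 28.6% and 22.3% in BPA 1 and 2. The folds were 5.11, 4.63, 7.81 and 9.14. For Krt18 the region with the lowest mean rank lay 2.4 kb upstream, at 31.1%, 38.3%, 48.6% and 69.4% with folds of 4.88, 5.16, 5.81 and 4.35. The controls were ahead of both BPA libraries in rank, an order held by 25.3% of such regions in coding windows. In BPA 2 this Krt18 region was the last of the 3 regions of that window. Krt19 had its region with the lowest mean rank 9.8 kb upstream, at 23.0% and 59.2% in controls 1 and 2 and 51.6% and 77.7% in BPA 1 and 2, with folds of 5.33, 3.77, 6.28 and 4.17. The controls of Krt19 lay further apart than the group means, and no direction can be read from them.

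Krt8 and Krt18 lie side by side on chromosome 15, and 2 intergenic regions belong to both windows. Of these, chr15:102010670-102011224 was found in both BPA libraries alone. It ranked at 56.1% with a fold of 5.76 in BPA 1 and 39.5% with a fold of 6.52 in BPA 2. Its summit and the bases upstream of Krt18 are shown, the latter because this promoter held CpG dinucleotides and yet had no peak.
Krt8 and Krt18 intergenic region, chr15:102010747-102010946, plus strand: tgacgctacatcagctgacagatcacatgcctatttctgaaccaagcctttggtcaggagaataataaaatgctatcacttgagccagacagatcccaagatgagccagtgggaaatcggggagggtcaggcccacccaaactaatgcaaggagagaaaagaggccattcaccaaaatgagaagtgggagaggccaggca
Krt18 promoter, chr15:102028016-102028215, plus strand: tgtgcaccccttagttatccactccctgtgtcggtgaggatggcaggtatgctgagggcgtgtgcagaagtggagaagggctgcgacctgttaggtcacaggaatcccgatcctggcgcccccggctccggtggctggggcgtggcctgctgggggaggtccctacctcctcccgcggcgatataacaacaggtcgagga

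Neither stretch matched a searched motif. The Krt18 stretch held 12 CpG, above the median of 9 over coding promoters. Over the members, promoters of 7 genes had a sequence in the RefSeq table for this build. Wt1, Msln and Krt19 were not among them.

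Taken over all windows, 18 of the 88 regions, or 20.5%, had a peak in all 4 libraries, against 30.1% of the 95118 regions in windows of coding genes. Without the window of Gpm6a, left out after its count was seen, they were 17 of 52, or 32.7%. Of the 88 regions, 8, or 9.09%, were found in both controls alone, against 4.64%, and 3 of these 8 remained without Gpm6a. The 3 regions found in both BPA libraries alone, or 3.41%, stood against 9.72% of regions in coding windows. With Gpm6a left out, both kinds came to 3 of 52, or 5.77%. Introns of Gpm6a thus held 5 of the 8 control-only regions, and without them the share was near the background.

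Absence in BPA 2 alone was the pattern with the highest ratio to its background. A peak in both controls and BPA 1 and none in BPA 2 was seen in 11 of 88 regions, or 12.5%, against 1.13% of regions in coding windows. These 11 regions were spread over 7 genes, Wt1, Msln, Upk3b, Lrrn4, Gpm6a, Muc16 and Bnc1, and without Gpm6a they were 8 of 52, or 15.4%. The converse pattern, with BPA 1 as the missing library, was seen in 0 regions against 4.48%. Absence in control 1 alone was seen in 2 regions, both in the Lrrn4 window, against 4.53%, and absence in control 2 alone in 2 against 3.39%. Among peaks whose −log10 q-value reached 5, the regions missing in BPA 2 alone numbered 6. The share in coding windows at that threshold was not computed.

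Regardless of the other BPA library, 19 of the 88 regions had a peak in both controls and none in BPA 2, against 5.77%, and 8 had a peak in both controls and none in BPA 1, against 9.12%. Without Gpm6a these were 11 and 3 of 52, or 21.2% and 5.77%. The 8 regions without a peak in BPA 1 are the same as the control-only regions, and they are also part of the 19. The share was thus above the background for BPA 2 with and without Gpm6a, and for BPA 1 it was at the background with Gpm6a and below it without. In 9 of the 11 regions missing in BPA 2 alone, BPA 1 ranked behind both controls, which was also so in 77.5% of the 1079 regions of this pattern in coding windows. Their median rank was 34.2% and 56.9% in controls 1 and 2 and 73.9% in BPA 1, beside 42.9%, 49.3% and 79.0% over the 1079 regions. The weaker rank in BPA 1 was therefore a feature of the pattern at large.

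**Figure D3:**
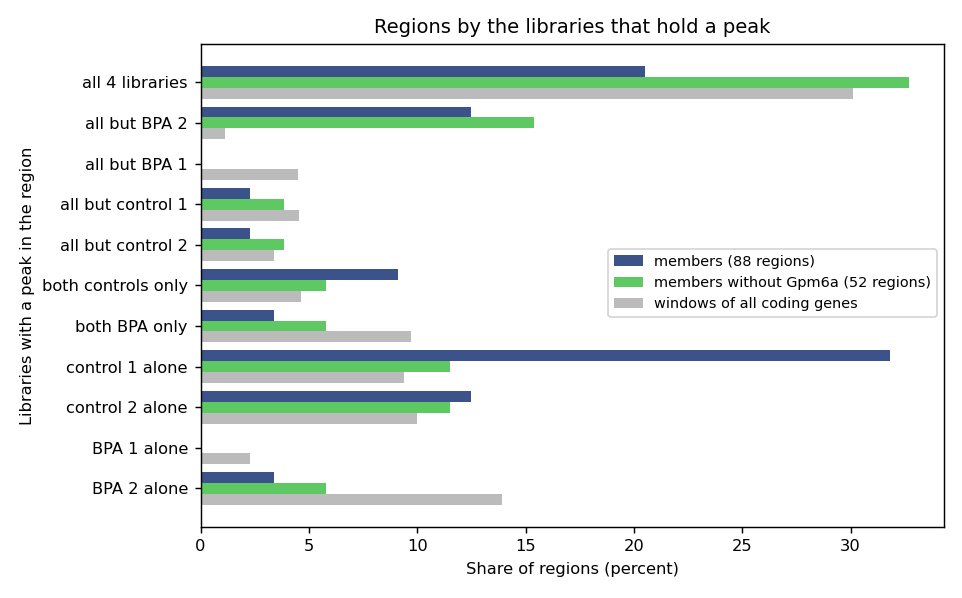
Share of regions (percent) by the libraries that hold a peak, for the 88 regions in windows of the 10 mesothelial genes (blue), for the 52 left without Gpm6a (green) and for the 95118 regions in windows of coding genes (grey). The bars for all but BPA 2 are 12.5% and 15.4% against 1.13%, and the bar for control 1 alone shrinks from 31.8% to 11.5% without Gpm6a.

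Regions found in a single library were unequally spread as well. Control 1 had 28 of its own, 22 of them in Gpm6a, against 9.37% of regions in coding windows, and control 2 had 11 against 10%. BPA 1 had 0, against 2.3%, and BPA 2 had 3, against 13.9%, which were 2 sites of Msln and 1 of Krt19. In all, control 1 had a peak in 67 of the 88 regions, against 55.8% of regions in coding windows, and control 2 in 52, against 58.7%. BPA 1 had a peak in 36, against 52.1%, and BPA 2 in 30, against 71.7%. Without Gpm6a the counts were 36, 38, 32 and 29 of 52, so that BPA 2 had the fewest with and without Gpm6a while it had the most over coding windows.

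Among the 18 regions with a peak in all 4 libraries the groups differed in both directions. Both controls ranked ahead of both BPA libraries in 7 of them, against 25.3% of such regions in coding windows, and both BPA libraries ranked ahead of both controls in 6, against 30.4%. The first kind lay in the windows of Wt1, Upk3b, Lrrn4, Krt18 and Gpm6a, and the second in those of Wt1, Msln, Lrrn4 and Bnc1. Median ranks of the 18 were 32.8% and 41.2% in controls 1 and 2 and 49.9% and 44.2% in BPA 1 and 2, behind the 24.9%, 24.3%, 26.4% and 19.2% of 28623 regions of this pattern in coding windows. Sites shared by all libraries thus had a median rank behind the background in each library and no common direction.

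By position, the summits of 58 of the 88 regions lay in introns, 27 were intergenic and 3 were in coding exons. The 11 regions missing in BPA 2 alone comprised 6 intergenic and 5 intronic sites.

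Promoters of other cell types were counted in the same way. A list of 18 other mesothelial or serosal genes had a promoter peak for 17 and 15 genes in controls 1 and 2 and for 15 and 13 in BPA 1 and 2, beside 62.6%, 61.4%, 64.1% and 67.4% of coding genes. Of these, 12 had one in all libraries, Calb2 had none, and Slpi and Krt7 had one in all but BPA 2. The count of BPA 2 was the lowest of the 4 but not below the share of coding genes. From this list and the members came 4 of the 35 coding genes with a promoter peak in all libraries but BPA 2. Both were chosen with earlier results of these data known, so this count is not independent support.

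Adipocyte genes had a promoter peak for all 8 genes in each library, and the hepatocyte genes, which the tissue should lack, for 0 of 3 in each. Of 4 neuronal genes, which the tissue should lack as well, 2 had one in each library. A promoter peak thus does not by itself show that a cell type was present. Fibroblast or progenitor genes had 8, 8, 9 and 9 of 10 in control 1, control 2, BPA 1 and BPA 2. Epithelial genes stood in another order than the mesothelial ones, with 4, 3, 5 and 7 of 13, and BPA 2 had the most. The keratin gene Krt7 belongs to both the epithelial and the serosal list. Endothelial genes had 2, 2, 7 and 7 of 7, and macrophage and leukocyte genes 3, 3, 4 and 4 of 7. Peaks at promoters of other cell types thus also differed between the libraries, and their part in the counts of the mesothelial genes was not tested.

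**Figure D4:**
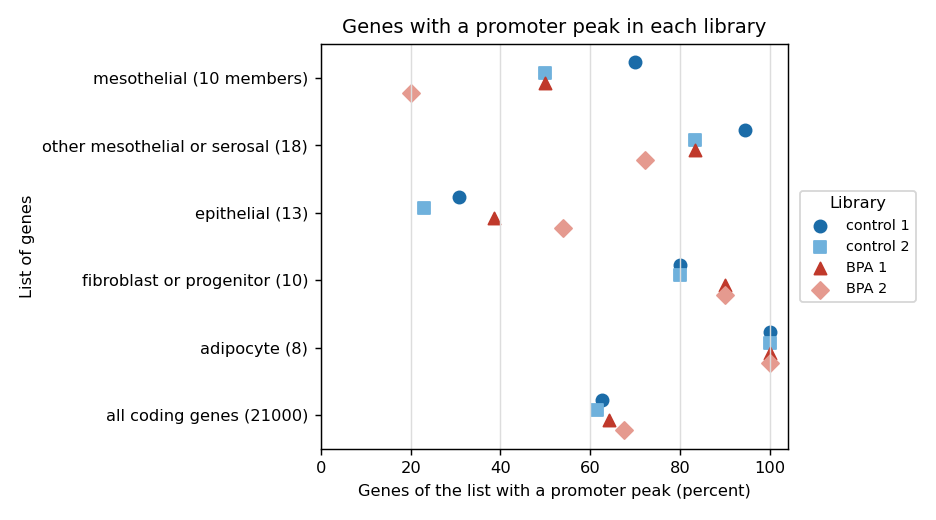
Percent of genes in each list shown (rows, with the number of genes) that had a promoter peak, with 1 symbol per library. The endothelial, macrophage and leukocyte, hepatocyte and neuronal lists are not drawn. Of these, the endothelial list had 2, 2, 7 and 7 of 7 genes in control 1, control 2, BPA 1 and BPA 2. For the mesothelial genes BPA 2 is the lowest symbol, with 2 of 10 against 5 to 7, and for all coding genes it is the highest, at 67.4%.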

How the data were processed

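Visceral adipose tissue of 4 CD-1 mice was processed with the Omni-ATAC protocol, in 2 groups of 2 libraries. Per the labels and the study's methods, the authors trimmed reads with Trim Galore, mapped them to mm10 with Bowtie2 2.3.5.1, kept unique reads, removed duplicates with SAMtools and called peaks on each sample with MACS2 2.2.7.1, without pooling. Options of the peak caller are not given in the sources used here. The deposited lists hold, for each peak, a whole-number score, the fold of the pile-up over local background as a ratio, a −log10 p-value and a −log10 q-value, all made by the authors' peak caller. The deposited offset of the summit is in base pairs. The lowest −log10 q-value in each list was 1.30 or 1.31, a q-value of 0.05.

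Promoter and window overlaps were computed in Python 3.11.15 (pandas 2.3.3, scipy 1.17.1) from 45756 curated RefSeq transcripts on GRCm38.p6, the same build as mm10. Ranks used the deposited q-values. Pile-up and local background were solved from the fold and the p-value under the Poisson model, with 100% of peaks solved to a relative error below 0.0001, and the steps were tested on simulated data. The members and all lists were chosen with earlier results of these data known. All 10 members were named, and ranks and folds were given for promoter peaks, for every region found in both libraries of 1 group alone and for the region of each member with the lowest mean rank over libraries with a peak. Other regions and genes named were picked after their values were seen. The labels name replicates but not the animals' families, so the spread between libraries may be partly technical. Sequences are those of RefSeq and of the GRCm38.p6 genome. Alternatives were stricter q-values, equal and shorter lists, other windows, overlaps and ranks, and leaving out each library.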

Additional observations from a re-analysis of the deposited data

How the results depend on the processing

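Of 82 alternative values, 48 stayed within 1.5 times the count, or within the spread of the ranks. Counts under the alternatives were made for the members only, without the matching shares over coding genes. In the best 20000 peaks of each list, members with a promoter peak numbered 1 and 0 in controls 1 and 2 and 1 and 0 in BPA 1 and 2, with 0 in both libraries of either group, and of the members' regions 4 were control-only, 0 BPA-only, 0 in all 4 libraries and 0 in all but BPA 2. At a −log10 q-value of at least 5, 4 members had a promoter peak in control 1 and 3 in control 2, with 5 control-only regions and 6 in all but BPA 2. With lists of equal length, 72375 peaks, control 2 had 3 members and control-only regions numbered 4. With promoters of 1000 bp either side, 4 members had a peak in BPA 2 and 7 in both controls. Peaks sharing 50% of both lengths left 5 control-only regions, and leaving out Gpm6a, chosen after seeing the data, left 3. Windows from 5 kb upstream held 11 regions in all 4 libraries and those from 50 kb held 28.

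Leaving out 1 library gave 5 to 7 members with a promoter peak in the controls left and 2 to 5 in the BPA library left, 8 to 36 control-only regions and 3 to 6 BPA-only regions. Without BPA 2 the BPA count was 5, and without BPA 1 control-only regions numbered 19. They were 22 without control 1 and 36 without control 2. With 1 library fewer, each rule required or excluded fewer libraries. Promoter counts could therefore not fall, and region counts could hardly fall. The BPA count of 5 is that of BPA 1 alone. These counts are among the 82 alternatives, but a rise in them does not show how stable the main counts are. The rank difference of Wt1, BPA minus control, went from -7.81 to 0.834 percentage points when peaks were ranked among promoter peaks, and that of Bnc1 from -29.5 to -7.05. The cause was not tested. Depth is unknown and limits what an absent peak can show. No paired analysis was possible because the labels number the replicates without a family, litter or batch to pair them, and no result comes from a test.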
